A study of Mus musculus with 6 samples.

Results

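Hmgcll1 and 4 genes of ketone body metabolism, Bdh1, Bdh2, Oxct1 and Acat1, were followed across leukaemic mouse B cells with and without gamma-catenin. These 5 genes were named by symbol, out of 19938 genes measured by a probe set with exactly 1 gene symbol, and each was read from its 1 such probe set. Hmgcll1 was selected on its KO against WT difference in these same arrays, where it was among the called transcripts, so its values are a description and carry no test. The other 4 were listed as the pathway to set beside it, with earlier results of these data known.

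Gamma-catenin, or plakoglobin, is encoded by Jup and links cadherins to the cytoskeleton in cell junctions. Fetal liver cells of Jup-/- (KO) or Jup+/+ (WT) embryos, CD45.2+ and on the C57BL/6 background, were used to reconstitute CD45.1+ mice, and marrow of these chimeras was transduced after at least 8 weeks with a retrovirus for BCR-ABL1 and green fluorescent protein. BCR-ABL1 is the fused tyrosine kinase made by the Philadelphia chromosome, and both genotypes carried it. The cells then went into lethally irradiated CD45.1+ recipients, and at day 21 the fluorescent donor B cells (CD45.2+) with B220 and BP-1 on their surface were sorted from bone marrow. All haematopoietic donor cells of the KO arm came from Jup-/- embryos, so loss of Jup preceded the kinase and was not limited to B cells. The ages of the mice are not given in the sources used here.

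Each genotype had 3 arrays, labelled as biological replicates, a number that bounds the precision. The arrays had log2 medians from 7.53 to 7.61. The B lineage and sort gate markers fixed for this work were bright, with 11 of 12 measured and 0 of the 11 below the array medians. Jup itself measured 7.04, 7.06 and 7.27 in KO and 8.04, 7.62 and 8.51 in WT, without overlap, and differed by -0.93 on the log2 scale (SE 0.20, limma adjusted p = 0.171). WT replicate 2 stood apart by its sex-linked transcripts, with Xist at 6.20 against at least 13.03 in the other arrays.

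Ketone bodies are made mainly in liver mitochondria and burned in other tissues. Acetyl-CoA units are joined to HMG-CoA, which a lyase splits into acetoacetate and acetyl-CoA, and acetoacetate is reduced to beta-hydroxybutyrate. Hmgcll1 encodes a lyase of this kind that lies outside the mitochondria, on cytoplasmic membranes. Bdh1 interconverts acetoacetate and beta-hydroxybutyrate in mitochondria, Oxct1 activates acetoacetate with a CoA taken from succinyl-CoA in the tissues that use it, and Acat1 is the thiolase that splits or forms acetoacetyl-CoA. Bdh2 is a related dehydrogenase of the cytosol that has also been tied to a mammalian siderophore, a small iron carrier.

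Hmgcll1 stood far from the other 4 genes in its difference between genotypes. Its probe set (10587241) gave log2 signals of 9.47, 9.33 and 9.29 in KO replicates 1, 2 and 3, and of 10.76, 10.73 and 10.45 in WT replicates 1, 2 and 3. The groups did not overlap: the highest KO array lay 0.98 log2 units under the lowest WT array. In all, 6 of the 21789 probe sets tested, Hmgcll1 included, had a gap at least that wide in either direction. The mean was 9.36 ± 0.10 (SD, n = 3) in KO against 10.65 ± 0.17 (SD, n = 3) in WT.

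The log2 difference of Hmgcll1, KO minus WT, was -1.28 (SE 0.10), or 2.43-fold lower in KO. It was the 18th lowest difference of all probe sets, the 4th lowest unadjusted p in either direction, and the 3rd lowest difference of the 15 probe sets called lower. Of the 5 genes, 1 was called, and it is the one picked for that. Over all probe sets 0.0688% were called lower in KO and 0.0505% higher at a limma adjusted p under 0.05. Hmgcll1 was not a dim transcript, since 80.1% of the probe sets had a lower mean.

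No single array carried the low Hmgcll1 value. This was fixed in advance, since leaving out any array keeps the groups at least 0.98 log2 units apart, and the values are a description. The Hmgcll1 difference was -1.34 without KO replicate 1, -1.27 without KO replicate 2 and -1.25 without KO replicate 3. Leaving out a WT array gave -1.23 for replicate 1, -1.24 for replicate 2 and -1.38 for replicate 3. The value without WT replicate 2 is also the value among arrays of like Xist level.

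**Figure D1:**
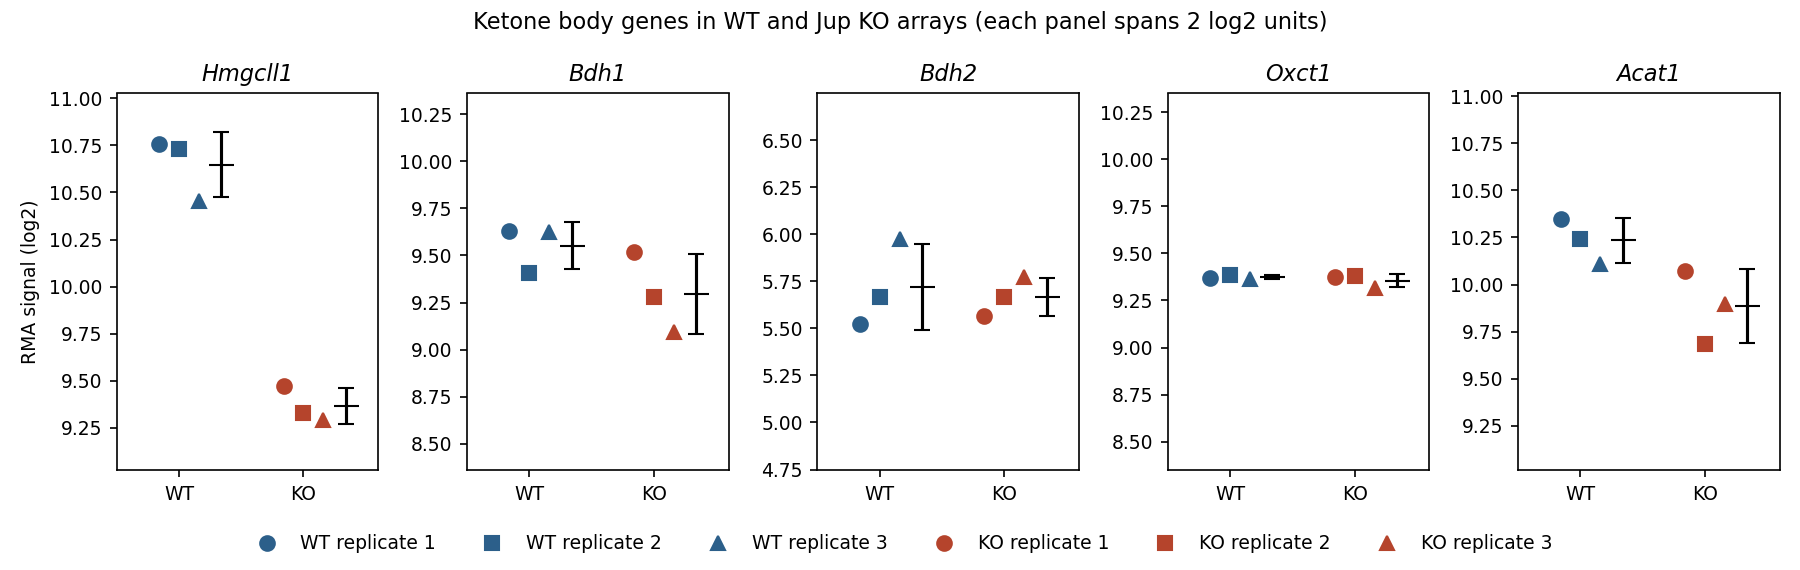
RMA signal on the log2 scale (vertical axes, each spanning 2 log2 units around its gene) of the 5 genes in 3 WT and 3 KO arrays, with the shape of a point giving the replicate number and black bars the mean ± SD. Hmgcll1 is lower in all 3 KO arrays, with 9.47 the highest KO and 10.45 the lowest WT value, Acat1 is separated by 0.04, and Bdh1, Bdh2 and Oxct1 overlap.

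Acat1, the thiolase that links acetoacetyl-CoA to acetyl-CoA, was the gene next to Hmgcll1 in size of difference. Its signals were 10.07, 9.68 and 9.90 in KO and 10.35, 10.24 and 10.11 in WT. The groups just failed to touch, with a gap of 0.04 between KO replicate 1 and WT replicate 3, and 14% of all probe sets had groups that did not overlap, 8.08% with KO lower and 5.94% with KO higher. The log2 difference was -0.35 (SE 0.11), with a 95% interval of -0.61 to -0.09, which left it short of the threshold (limma adjusted p = 0.386). Leaving out KO replicate 1 gave -0.44 and leaving out KO replicate 2 gave -0.25. The value was below 0 under all 16 alternatives, several of which could not change it by construction.

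Bdh1, the mitochondrial dehydrogenase that sets the ratio of beta-hydroxybutyrate to acetoacetate, measured 9.52, 9.28 and 9.09 in KO and 9.63, 9.41 and 9.62 in WT. KO replicate 1 lay above WT replicate 2, so the groups overlapped. The log2 difference was -0.26 (SE 0.12), with a 95% interval of -0.53 to 0.02 (limma adjusted p = 0.581). Its size rested partly on KO replicate 3, without which it was -0.16, and without KO replicate 1 it was -0.37.

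Oxct1, the enzyme that commits acetoacetate to oxidation, was the most even of the 5 genes. It measured 9.37, 9.38 and 9.31 in KO and 9.37, 9.38 and 9.37 in WT. The 6 arrays lay close together and the groups overlapped. The log2 difference was -0.02 (SE 0.07) with a 95% interval of -0.18 to 0.14 (limma adjusted p = 0.972), and its sign turned to 0.0035 without KO replicate 3.

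Bdh2 was the dimmest, with only 16.8% of the probe sets below its mean, and RMA compresses the changes of dim transcripts. It measured 5.57, 5.66 and 5.77 in KO and 5.52, 5.67 and 5.97 in WT, so the KO arrays lay inside the WT range. The log2 difference was -0.05 (SE 0.12) with a 95% interval of -0.33 to 0.22 (limma adjusted p = 0.949), and it was 0.07 without WT replicate 3. For Bdh1 and Oxct1 the intervals, not the missed threshold, give the range of differences that the arrays allow. The interval of Bdh2 covers only the signal as measured, and the difference before compression could be larger.

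Set side by side, the log2 differences were -1.28 for Hmgcll1, -0.35 for Acat1, -0.26 for Bdh1, -0.05 for Bdh2 and -0.02 for Oxct1. The interval of Hmgcll1 ran from -1.52 to -1.05 and did not reach that of any of the other 4, of which the lowest bound was -0.61 for Acat1. Acat1, Bdh1, Bdh2 and Oxct1 have intervals that overlap one another. Whether Hmgcll1 differs from them was not tested, because it was picked for its difference in this contrast. Its interval takes no account of that choice.

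The further genes of ketone and HMG-CoA handling included 13 genes, of which 9 were measured by a probe set of their own. Of these 7 had a lower and 2 a higher KO mean, and without WT replicate 2 there were 5 lower and 4 higher. The median log2 difference was -0.04 against -0.02 over all probe sets. Of the 9, 0 passed in limma and 0 had an unadjusted p under 0.05, where 9.22% of all probe sets did. The lowest by moderated t was Slc16a1, the transporter MCT1 that carries lactate and ketone bodies across the plasma membrane, at -0.11 (SE 0.08). The highest was Hmgcs1, the cytosolic HMG-CoA synthase that feeds cholesterol synthesis, at 0.17 (SE 0.11). Groups overlapped in all 9, and the median lay between -0.09 and -0.01 under the alternatives. The other 4 were not analysed here.

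Leucine breakdown also ends in HMG-CoA, and its 12 genes went both ways. The median log2 difference was 0.02 (from -0.01 to 0.07 under the alternatives), 6 were higher and 6 lower, and 0 passed in limma. At an unadjusted p under 0.05 there were 1 higher and 2 lower, or 25% of the list, beside 9.22% of all probe sets. Groups without overlap made up 41.7% of the list, beside 14% of all probe sets. Bcat1, the cytosolic aminotransferase that takes the first step, measured 11.98, 11.71 and 11.75 in KO and 12.23, 12.22 and 12.16 in WT. The groups did not overlap, and the log2 difference was -0.39 (SE 0.09, limma adjusted p = 0.218). Ivd, the isovaleryl-CoA dehydrogenase further down the same route, measured 10.39, 10.40 and 10.38 in KO and 10.25, 10.17 and 9.91 in WT, a difference of 0.28 (SE 0.10, limma adjusted p = 0.432). Neither passed the threshold, and Bcat1 and Ivd were named because they were the lowest and highest of the list by moderated t.

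Mitochondrial fatty acid oxidation supplies the acetyl-CoA for ketogenesis. The KO mean was the lower one in 12 of 18 measured genes, and in 10 to 17 of them under the alternatives. Their median log2 difference was -0.04 (from -0.09 to -0.01 under the alternatives), and 0 passed in limma. At an unadjusted p under 0.05 there were 3 lower and 0 higher, or 16.7% of the list, beside 9.22% of all probe sets. Groups without overlap made up 22.2% of the list, beside 14% of all probe sets. Hadh, the short-chain hydroxyacyl-CoA dehydrogenase, was the lowest by moderated t and measured 11.41, 11.32 and 11.45 in KO and 11.62, 11.61 and 11.77 in WT. The groups did not overlap, with a difference of -0.28 (SE 0.08, limma adjusted p = 0.337). Eci2, an enoyl-CoA isomerase, was the highest at 0.13 (SE 0.13).

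The citric acid cycle, which burns the acetyl-CoA that Acat1 releases, had small differences that mostly ran one way. The KO mean was the lower one in 14 of 15 measured genes, and their median log2 difference was -0.11 (from -0.16 to -0.08 under the alternatives), and between 13 and 15 were lower in every alternative. In 7 of them (46.7%) the KO arrays all lay below the WT arrays, where 8.08% of all probe sets did, but 0 passed in limma. At an unadjusted p under 0.05 there were 3 lower, or 20% of the list, beside 9.22% of all probe sets in either direction. Suclg2, a subunit of the ligase that uses succinyl-CoA, measured 9.56, 9.33 and 9.46 in KO and 9.58, 9.73 and 9.77 in WT, with a difference of -0.24 (SE 0.09, limma adjusted p = 0.453). Its partner subunit Suclg1 (-0.22, SE 0.08) and the fumarase gene Fh1 (-0.23, SE 0.09) were the other 2 at that unadjusted level, and were named with their values known. Idh3g, of the isocitrate dehydrogenase, was the highest at 0.02 (SE 0.07).

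**Figure D2:**
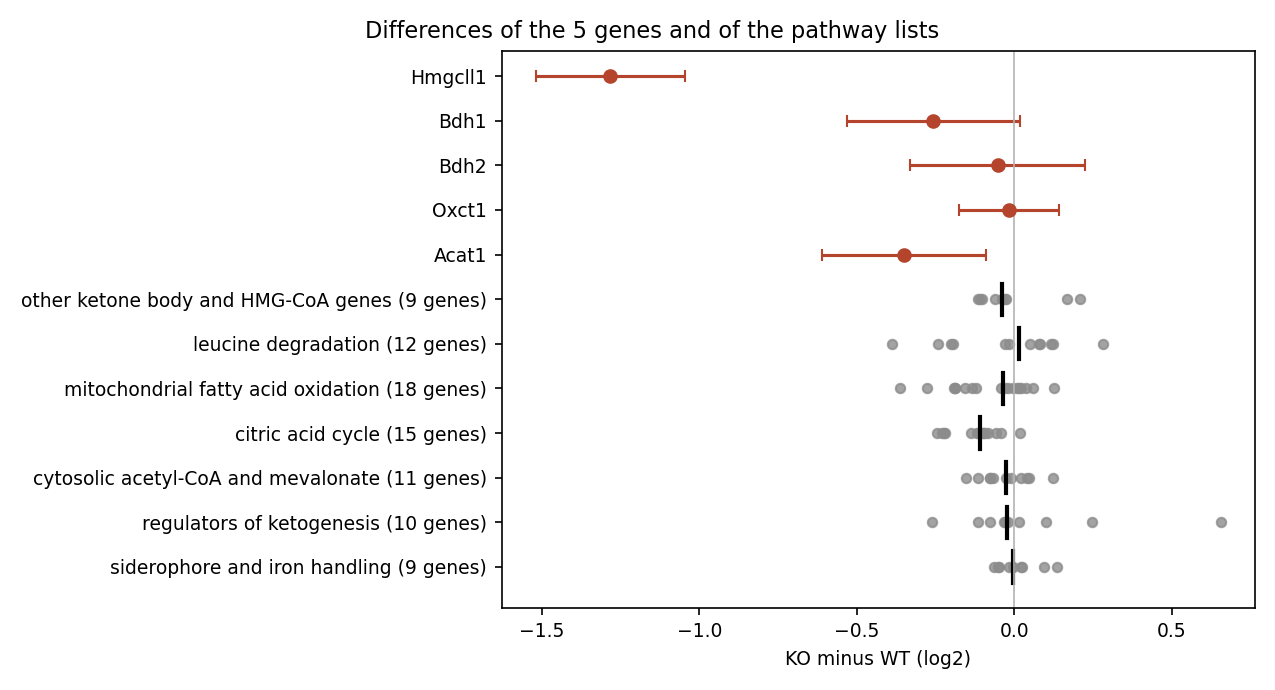
KO minus WT differences on the log2 scale for the 5 genes (red points with 95% intervals of the limma fit) and for each gene of 7 pathway lists (grey points, with a black bar at the list median). Hmgcll1 at -1.28 lies outside the range of all 84 list genes, which run from -0.39 to 0.65.

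The lists on the cytosolic side held no larger differences. Among 11 genes of cytosolic acetyl-CoA supply and the mevalonate pathway, which also draws on HMG-CoA outside mitochondria, 7 were lower in KO. Under the alternatives 5 to 9 were lower. The median difference was -0.03 (from -0.08 to 0.03 under the alternatives). Fdft1, squalene synthase, was the lowest by moderated t at -0.12 (SE 0.10) and Srebf2, the transcription factor of this pathway, the highest at 0.12 (SE 0.10). Among 9 genes of siderophore and iron handling, listed because of Bdh2, the median was -0.003 (from -0.03 to 0.05), with Tfrc, the transferrin receptor, at -0.07 (SE 0.10) and Ftl1, ferritin light chain, at 0.14 (SE 0.10). In both lists 0 passed in limma and 0 had an unadjusted p under 0.05.

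Among 10 regulators of ketogenesis the median log2 difference was -0.02 (from -0.07 to 0.02 under the alternatives), and 0 passed in limma. At an unadjusted p under 0.05 there were 1 higher and 1 lower, or 20% of the list, beside 9.22% of all probe sets. Groups without overlap made up 30% of the list, beside 14% of all probe sets. Sirt3, the mitochondrial deacetylase, measured 9.16, 8.87 and 8.99 in KO and 9.24, 9.30 and 9.26 in WT, a difference of -0.26 (SE 0.09, limma adjusted p = 0.423). Mlycd, which removes the malonyl-CoA that restrains fatty acid import, measured 7.74, 7.88 and 7.76 in KO and 7.53, 7.59 and 7.51 in WT, a difference of 0.25 (SE 0.08, limma adjusted p = 0.357). The groups did not overlap in either gene. Ppargc1a, a coactivator of mitochondrial genes, had the largest difference of the list at 0.65 (SE 0.36), and was named with its values known. It measured 9.95 in KO replicate 1, whereas the other 2 KO arrays, at 8.31 and 8.63, were near the WT arrays at 8.42, 8.33 and 8.18.

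Over all 7 lists 84 of 91 genes were measured, 57 lower and 27 higher in KO. Of the 84, 0 passed in limma, beside 0.119% of all probe sets, so 0 calls do not show that these genes were unchanged. The count was also 0 under 15 alternatives (the filter on dim probe sets kept 78 of the 84). At an unadjusted p under 0.05 there were 9 lower and 2 higher, or 13.1% of the 84, beside 9.22% of all probe sets. The groups did not overlap in 22.6% of them, beside 14% of all probe sets. Over all probe sets tested 55.8% had a lower KO mean. These genes share arrays and are not independent of one another.

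The KO arrays differed among themselves, and which lay nearest to WT varied with the gene and list. As the deviation from the WT mean on the log2 scale, Acat1 was at -0.16, -0.55 and -0.34 in KO replicates 1, 2 and 3, and Bdh1 at -0.04, -0.28 and -0.46. The mean of the citric acid cycle genes was at -0.03, -0.17 and -0.18 in the same arrays, and the WT arrays were at 0.06, -0.03 and -0.03. The mean of mitochondrial fatty acid oxidation was at -0.03, -0.08 and -0.13, and the WT arrays were at 0.11, -0.04 and -0.08. In both lists KO replicate 1 lay within the WT range. Hmgcll1 was at -1.18, -1.32 and -1.36, so KO replicate 1 was the nearest of the KO arrays for these, and for Hmgcll1 all 3 were far below WT. It was the farthest KO array for Bdh2 (-0.15, against -0.06 and 0.05), the other ketone and HMG-CoA genes (-0.05, against -0.002 and 0.01) and the regulators (0.13, against -0.01 and 0.03). For leucine degradation the KO arrays were at 0.05, -0.10 and -0.03.

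**Figure D3:**
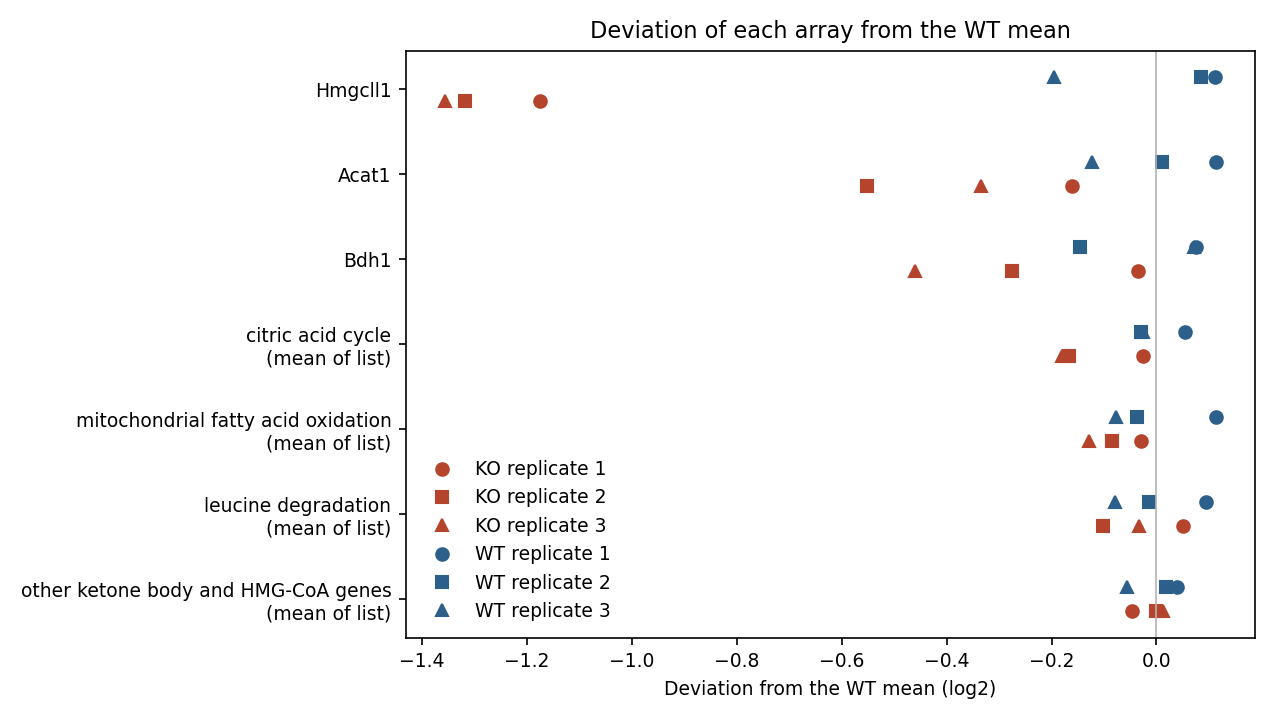
Deviation of each array from the WT mean on the log2 scale (horizontal axis) for Hmgcll1, Acat1, Bdh1 and the mean of 4 pathway lists, with WT in blue, KO in red and the point shape giving the replicate number. KO replicate 1 is the KO array closest to WT for Hmgcll1 (-1.18), Acat1 (-0.16) and Bdh1 (-0.04). It is also the closest for the citric acid cycle (-0.03) and mitochondrial fatty acid oxidation (-0.03), where it lies within the WT range. The lists of leucine degradation and other ketone genes show mixed arrays.

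The genes whose values followed Hmgcll1 most closely over the 6 arrays were ranked by Pearson's r among 989 named probe sets with an SD of at least 0.3. They were Bnip3 (r = 0.992), a mitochondrial outer membrane protein of mitophagy, Rgs8 (0.986), a regulator of G protein signalling, Ldlrad4 (0.986), a membrane protein that dampens TGF-beta signalling, Foxc1 (0.980), a forkhead transcription factor, and Dnajc15 (0.976), a co-chaperone of the mitochondrial inner membrane. In all 5 the KO arrays lay below the WT arrays, and their log2 differences were -0.85 for Bnip3, -1.15 for Rgs8, -0.73 for Ldlrad4, -1.15 for Foxc1 and -0.75 for Dnajc15. Dnajc15 missed the threshold (limma adjusted p = 0.0726). The ranking mostly reflects the step between genotypes, since the points fall into 2 separate groups of 3 arrays, and is given as a description.

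**Figure D4:**
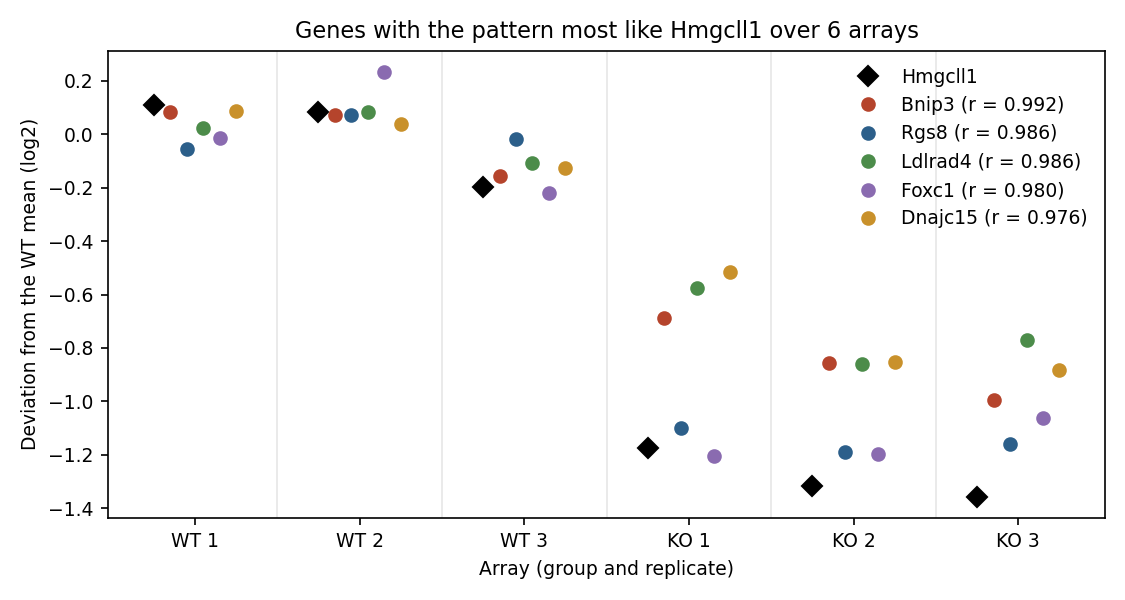
Deviation from the WT mean on the log2 scale (vertical axis) of Hmgcll1 and the 5 genes with the highest Pearson's r to it, in each of the 6 arrays (horizontal axis). All 6 genes are lower in the 3 KO arrays, and Hmgcll1 has the lowest value of them in KO replicates 2 (-1.32) and 3 (-1.36).

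Among the 5 ketone genes themselves, Acat1 followed Hmgcll1 with r = 0.860 and Bdh1 with r = 0.687 over the 6 arrays. Oxct1 gave 0.431 and Bdh2 0.015. These values too hold the step between genotypes and are a description.

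The genes next to Hmgcll1 on its chromosome had small differences. In the RefSeq gene order of assembly GRCm38.p6, used only for order, the nearest 2 measured genes on one side were Bmp5, a bone morphogenetic protein, and Scg3, a secretogranin. On the other side they were Gfral, the receptor of GDF15, and Hcrtr2, an orexin receptor. Their log2 differences were 0.08 (SE 0.08) for Bmp5, -0.05 (SE 0.08) for Scg3, -0.17 (SE 0.10) for Gfral and -0.02 (SE 0.08) for Hcrtr2, and the groups overlapped in all 4. All 4 were dim, with between 6.62% and 22.3% of the probe sets below them.

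Markers of other cell types moved with the genotypes in part. The myeloid markers were higher in 13 of 15 in KO. Of the 15, 3 passed in limma, all higher (Mpo, Elane and Ctsg), beside 0.0505% of all probe sets called higher. The list had a mean log2 level of 8.64 to 8.80 in KO and 7.83 to 8.31 in WT. All 3 KO arrays thus lay above all 3 WT arrays. The list's median log2 difference was 0.68, with 11 higher and 0 lower by an unadjusted p under 0.05. Over all probe sets 9.22% passed that level in either direction. Of the 15 markers 6 had a mean below the array medians. In bulk samples fewer cells of a type and less RNA per cell cannot be told apart, and the part of myeloid cells in the Hmgcll1 difference was not tested.

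The other marker lists moved less in their median differences. T and NK cell markers were higher in 3 of 8, with means of 6.27 to 6.48 in KO and 6.29 to 6.59 in WT, and all 8 lay below the array medians. Of the 8, Nkg7 was higher (0.49, SE 0.13) and Klrb1c (-0.79, SE 0.20) and Cd8a (-0.22, SE 0.10) lower at an unadjusted p under 0.05. Erythroid markers were higher in 3 of 6 (7.88 to 7.90 in KO, 7.76 to 7.85 in WT, without overlap of these means), with Car1 called higher. Stromal and endothelial markers were higher in 4 of 9 (7.21 to 7.30 in KO, 7.24 to 7.40 in WT), with Sparc called lower. Over all probe sets 0.0505% were called higher and 0.0688% lower, and 9.22% had an unadjusted p under 0.05. B lineage and sort gate markers were higher in 7 of 11 (12.27 to 12.39 in KO, 12.21 to 12.28 in WT), and 0 passed in limma. At an unadjusted p under 0.05 2 were higher, the recombinase genes Rag1 (0.50, SE 0.16) and Rag2 (0.42, SE 0.10), and 1 was lower, Enpep (-0.23, SE 0.09), which encodes the sorted antigen BP-1. Their part in the results for the ketone genes was not tested.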

How the data were processed

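RNA of 6 sorted samples was hybridised to 1-colour Affymetrix arrays. Per the submitters' processing notes the authors ran RMA, with Expression Console 1.1 from Affymetrix, and they deposited its log2 values. The options and annotation build are not given in the sources used here. Of 35556 rows, 21789 had exactly 1 gene symbol in the platform annotation and were tested, 1621 had several and 12146 are unnamed here. The genotypes were contrasted by a limma 3.58.1 model (R 4.3.3, lmFit then eBayes, without covariates or a filter on dim probe sets), with Benjamini-Hochberg adjustment over all 21789 and a threshold of 0.05. Each gene was read from its probe set with the highest mean. SEs and 95% intervals are the moderated ones. Arrays of 1 genotype are labelled as biological replicates, and whether they came from separate donors is not stated further. The p-values weigh each difference against the spread between these arrays within the genotypes, which limma moderates over all probe sets.

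The 5 genes, the 7 pathway lists and the 5 marker lists were chosen with earlier results of these data known. By the naming rule the text gives the 5 genes, Jup, every list gene past the threshold or otherwise the highest and lowest by moderated t of each pathway list, the 5 genes most like Hmgcll1 and 2 neighbours on each side. Some genes of the lists and of this rule are not reported here. The fit was tested on simulated data. The alternatives were a filter on probe sets under the 40th percentile, all rows, genes reduced to 1 probe set, array weights, a prior that was trended and robust, quantile normalization, median centring, a block for the replicate number, leaving out every array in turn, a threshold of 0.1 and averaging the probe sets of a gene.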

Additional observations from a re-analysis of the deposited data

How the results depend on the processing

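Hmgcll1 stayed between -1.38 and -1.23 on the log2 scale under all 16 alternatives. Several of them could not move the difference of a gene with 1 probe set. These were the dim filter, all rows, 1 probe set per gene, the changed prior, the replicate block, the threshold of 0.1 and averaging. Acat1, Bdh1, Bdh2 and Oxct1 gave 0 calls under each of the 16 alternatives, as did the pathway genes under the 15 run for them. The filter on dim probe sets left out Bdh2 and kept 78 of the 84 pathway genes, and averaging a gene's probe sets was not planned for the lists. With 1 array left out, Bdh2 ranged from -0.15 (without WT replicate 1) to 0.072 (without WT replicate 3) and Oxct1 from -0.031 (without KO replicate 2) to 0.0035 (without KO replicate 3). The count of called probe sets, 11 higher and 15 lower, became 59 lower with all rows, 17 higher and 23 lower with the trended and robust prior, 93 and 57 with array weights, 7 higher with quantile normalization, 17 higher with median centring, and 25 and 33 at an adjusted p of 0.1, and the cause was not tested. With 1 array left out it ranged from 1 to 41 higher and from 3 to 41 lower: the lowest counts came without KO replicate 3 or WT replicate 3 (1 higher) and KO replicate 2 (3 lower), the highest without KO replicate 1. With the replicate block there were 8 higher and 11 lower, and it changed no call among the ketone genes. Same-numbered arrays correlated in their deviations from the group means at 0.10, -0.0043 and 0.27, and 2 of the 3 KO arrays correlated best with their own number. With so few arrays these values cannot settle whether the numbers mark pairs, and the main fit did not take them as pairs. Probe sets below the array medians, Bdh2 among them, can hide changes that RMA compresses.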
